A study of Mus musculus with 12 samples.

Results

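The genes described here are Mmd2, Cadps, Gatm, Ifltd1, Cldn10 and Krt19, 6 of the 14398 genes of the count table, measured in adipocyte precursor cells of mouse fat. They were listed by symbol for a large difference between the visceral and the subcutaneous depot, or for a diet change that differed between the depots, with Krt19 added as a gene that is lower in visceral cells. All 6 passed the filter on low counts. The name they were gathered under, visceral-restricted effector genes, describes the direction of 4 of them between the depots compared. They were listed for such differences in these data, so their direction does not test the name. Cldn10, like Krt19, was lower in visceral cells on both diets, so the set is best read as 4 genes high in the visceral depot (Mmd2, Cadps, Gatm and Ifltd1) and 2 genes high in the subcutaneous depot (Cldn10 and Krt19).

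The cells came from male C57Bl6/J mice of 6 to 8 weeks of age, with no genetic change named. They were isolated by flow cytometry as CD45-/CD31- cells carrying CD29, CD34 and Sca1, whether or not they carried CD24. The groups, of 3 libraries each, were VWAT_HFD (perigonadal fat, high-fat diet of 60% lard for 3 days), VWAT_SD (perigonadal fat, standard diet), SWAT_HFD (inguinal subcutaneous fat, the same high-fat diet) and SWAT_SD (inguinal subcutaneous fat, standard diet). Each library held tissue pooled from 3 mice, and the standard-diet samples are labelled day 0, so diet and day of collection cannot be told apart. Beyond the pools, nothing says how the replicates were kept apart, so the spread between libraries may be in part technical. Gene counts per library ran between 17.6 M and 56.1 M (M is 1e+06), and levels are given as counts per 1e+06 counts (CPM) after TMM scaling.

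White fat grows partly by the formation of fat cells from precursors in its stroma, and the precursors of visceral and subcutaneous depots keep distinct expression programmes. Visceral depots are covered by mesothelium, a sheet of cells of mesodermal origin with some epithelial traits, and visceral stromal cells share the expression of Wt1, a zinc finger transcription factor, with it. The 6 genes have unlike roles. Mmd2 encodes a multi-pass Golgi membrane protein of the progestin and adipoQ receptor (PAQR) family, Cadps a protein that primes dense-core vesicles for calcium-triggered release, and Gatm the mitochondrial enzyme of the first step of creatine synthesis. Ifltd1, now named Lmntd1, encodes a little-studied protein with a lamin tail domain. Cldn10 encodes a claudin, a tight junction protein that forms ion-selective paths between cells, and Krt19 an intermediate filament protein of simple epithelia.

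The starts of 3 of the genes are shown because a motif searched for lies in them: the 250 bases before the RefSeq start (GRCm38.p6) of Mmd2 (chr5:142608753-142609002, minus strand), of Ifltd1 (chr6:145434926-145435175, minus strand) and of the first of the 2 starts of Cldn10 (chr14:118787621-118787870, plus strand). Capitals mark the matches, in the strand of the gene.
Mmd2: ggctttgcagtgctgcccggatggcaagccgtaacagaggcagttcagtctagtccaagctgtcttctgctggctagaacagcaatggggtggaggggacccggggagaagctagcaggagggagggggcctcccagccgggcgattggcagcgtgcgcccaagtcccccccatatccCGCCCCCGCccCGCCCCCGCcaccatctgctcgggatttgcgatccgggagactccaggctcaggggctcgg
Ifltd1: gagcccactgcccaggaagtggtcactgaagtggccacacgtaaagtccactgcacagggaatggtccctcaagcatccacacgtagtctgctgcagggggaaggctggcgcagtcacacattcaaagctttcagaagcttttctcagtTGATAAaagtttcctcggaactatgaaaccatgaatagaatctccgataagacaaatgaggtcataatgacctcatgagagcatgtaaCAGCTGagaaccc
Cldn10: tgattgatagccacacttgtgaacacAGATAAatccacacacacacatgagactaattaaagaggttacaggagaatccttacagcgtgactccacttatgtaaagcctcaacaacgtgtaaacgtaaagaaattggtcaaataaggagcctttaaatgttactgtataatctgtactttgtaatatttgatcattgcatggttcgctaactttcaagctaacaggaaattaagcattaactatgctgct
Mmd2 held 2 matches to the WT1/EGR letters GCGGGGGCG, both on the opposite strand, which begin 72 and 61 bases before the start and do not overlap. GCGTGGGCG or GCGGGGGCG, on either strand, stood in 3.06% of 32851 promoter windows of the same length. Ifltd1 held a GATA match (TGATAA) 101 bases and an E-box of the TCF21 type (CAGCTG) 13 bases before its start. The window of Cldn10 printed above held a GATA match (AGATAA) 224 bases before its start. The window at the second start of Cldn10 held the E-box, 173 bases before that start, and gene-level counts cannot tell which start was used. AGATAA or TGATAA stood in 16.6% of all windows and CAGCTG in 13%, searched on both strands. None of the 5 genes with a window had the letters TATAAA, found in 12.4% of all windows, and the windows of Cadps and Gatm had no match to any of the letters searched. A match is a description of the letters and not of binding. The genes lie on chromosomes 5 (Mmd2), 14 (Cadps and Cldn10), 2 (Gatm), 6 (Ifltd1) and 11 (Krt19).

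In both depot comparisons the VWAT and SWAT libraries of each of the 6 genes were fully apart, 4 with VWAT higher and 2 with VWAT lower. Over all 14266 genes tested, 36.0% had no overlap between VWAT_HFD and SWAT_HFD libraries (17.7% higher and 18.2% lower in VWAT). Between VWAT_SD and SWAT_SD libraries 45.1% had none (23.6% higher and 21.4% lower in VWAT). The genes were picked on these differences, so their values are given as a description and without a test. A gene that is near 0 in one depot passes the low-count filter through the other depot alone and had to differ. In sorted but bulk cells, fewer cells that express a gene and less RNA per cell cannot be told apart.

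**Figure D1:**
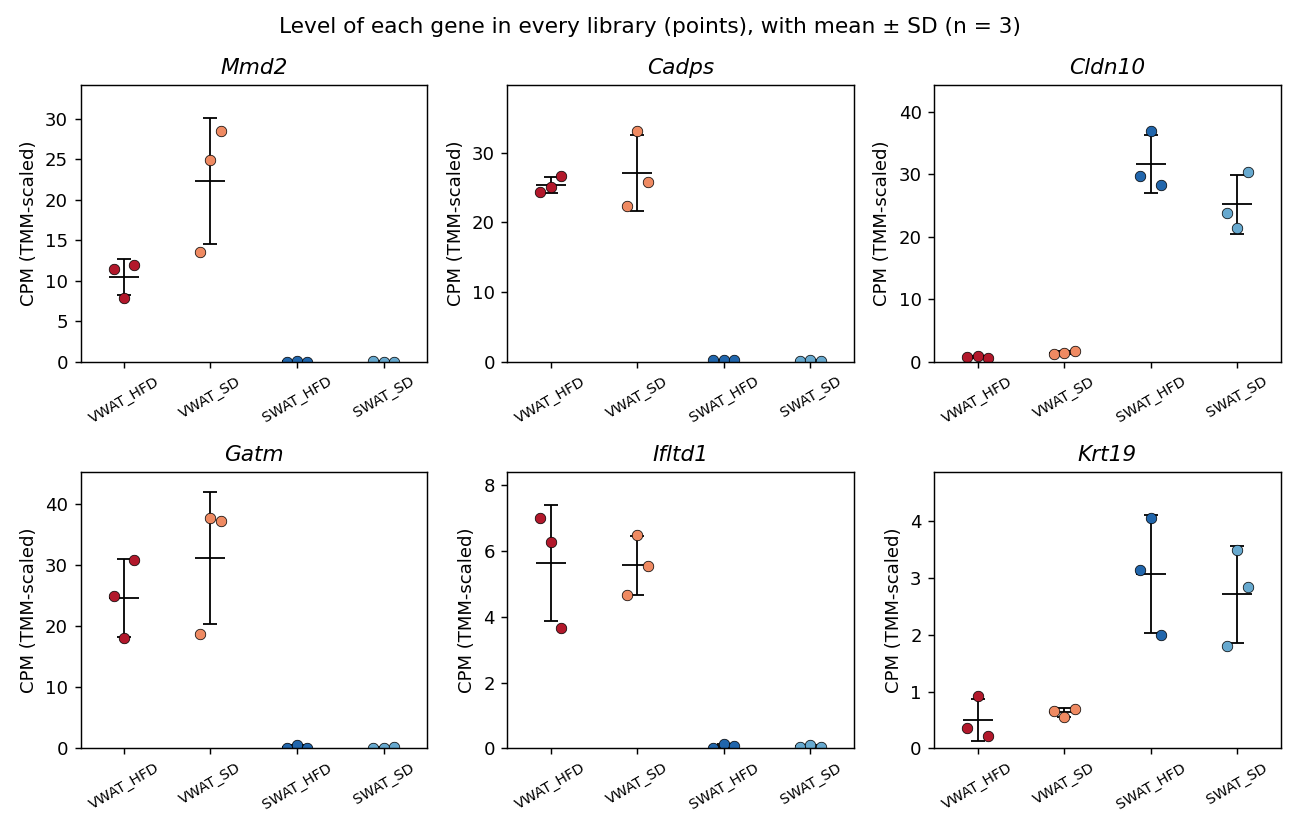
TMM-scaled CPM (vertical axis, own scale in each panel) of the 6 genes in each library (points), with mean ± SD of the 3 libraries of each group. Mmd2, Cadps, Gatm and Ifltd1 stood near 0 in all 6 SWAT libraries, whereas Cldn10 and Krt19 were highest in SWAT.

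Mmd2 gave 11.5, 7.85 and 12.0 CPM in VWAT_HFD libraries and 13.6, 24.9 and 28.5 CPM in VWAT_SD libraries. It gave 0, 0.0619 and 0.0208 CPM in SWAT_HFD libraries and 0.0383, 0 and 0 CPM in SWAT_SD libraries. Every VWAT library was far above every SWAT library, and every VWAT_HFD library was below every VWAT_SD library. The SWAT values rest on 3 counts in SWAT_HFD and 2 counts in SWAT_SD, against 1630 counts in VWAT_HFD and 3521 in VWAT_SD. A count of 0 still allows up to 0.201 CPM in SWAT_HFD replicate 1, the shallowest library. The ratio of VWAT_HFD to SWAT_HFD was 333 (95% counting interval 114 to 1615) and that of VWAT_SD to SWAT_SD was 1321 (366 to 10916). Both SWAT_SD counts came from replicate 1. Without it the group held none, and the log2 ratio on SD, 10.37 with all libraries, was at least 8.94 against a floor of 3 counts over the group. Without SWAT_SD replicate 2 it was 9.67, and without SWAT_HFD replicate 2 the log2 ratio on HFD was 9.37 in place of 8.38. The diet difference in VWAT was -1.10 on the log2 scale (SE 0.246), with means of 10.4 ± 2.26 CPM in VWAT_HFD and 22.3 ± 7.77 CPM in VWAT_SD (SD, n = 3 each). In order of level, VWAT_SD came first and VWAT_HFD next, with no overlap, and the SWAT groups followed at or under the floor of 3 counts, where no diet fold is given.

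Cadps gave 24.3, 25.1 and 26.6 CPM in VWAT_HFD libraries and 22.3, 33.1 and 25.7 CPM in VWAT_SD libraries. It gave 0.201, 0.248 and 0.208 CPM in SWAT_HFD libraries and 0.153, 0.195 and 0.137 CPM in SWAT_SD libraries. The VWAT groups overlapped, and the SWAT groups did not, although these rest on 21 counts in SWAT_HFD and 20 in SWAT_SD. Among all genes, 21.8% had no overlap between the SWAT diets, 11.6% with every SWAT_HFD library above every SWAT_SD library and 10.2% with every one below. The ratio of VWAT_HFD to SWAT_HFD was 115 (74.8 to 185), a log2 difference of 6.83 (SE 0.207). The ratio of VWAT_SD to SWAT_SD was 160 (104 to 263), a log2 difference of 7.32 (SE 0.207). The diet differences were -0.09 (SE 0.122) in VWAT and 0.40 (SE 0.384) in SWAT on the log2 scale. Its order of levels was VWAT_SD and VWAT_HFD, not apart beyond their spread, then SWAT_HFD and SWAT_SD.

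Gatm gave 25.0, 18.0 and 30.8 CPM in VWAT_HFD libraries and 18.7, 37.7 and 37.2 CPM in VWAT_SD libraries. It gave 0, 0.557 and 0.0832 CPM in SWAT_HFD libraries and 0.0957, 0.130 and 0.183 CPM in SWAT_SD libraries. The depots did not overlap on either diet, while the diets overlapped within each depot. The ratio of VWAT_HFD to SWAT_HFD was 106 (70.0 to 169), a log2 difference of 6.71 (SE 0.504), and that of VWAT_SD to SWAT_SD was 245 (148 to 438), a log2 difference of 7.93 (SE 0.525). SWAT_HFD replicate 2 alone held 18 of the 22 counts of its group. Without that library the log2 depot difference on HFD was 8.55, and the diet difference in SWAT was -0.97 in place of 0.88 (SE 0.992). Without SWAT_HFD replicate 3 the same values were 6.04 and 1.54. The diet difference in VWAT was -0.34 (SE 0.298). The same SWAT_HFD library also stood apart in leukocyte markers, with 40.3 summed CPM over the 7 of 9 marker genes that passed the filter, against 11.2 to 15.6 CPM in the other SWAT libraries. Ptprc, which encodes the CD45 that the sort excluded, had 6.93 CPM there and 0.183 to 0.536 CPM in the other SWAT libraries. Endothelial markers other than Tek were also highest there among the SWAT libraries. Pecam1, which encodes the CD31 that the sort excluded too, had 8.29 CPM there and 1.56 to 5.24 CPM in the other SWAT libraries. The summed endothelial level, mostly Tek, was 314 CPM there and 216 to 316 CPM in the others. The part of leukocytes, endothelial cells or other cells in the Gatm counts was not tested.

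Ifltd1 gave 7.01, 6.26 and 3.66 CPM in VWAT_HFD libraries and 4.68, 6.47 and 5.54 CPM in VWAT_SD libraries. It gave 0, 0.124 and 0.0624 CPM in SWAT_HFD libraries and 0.0383, 0.108 and 0.0458 CPM in SWAT_SD libraries. The depots were apart and the diets overlapped in both of them. The ratio of VWAT_HFD to SWAT_HFD was 78.6 (38.0 to 196) and that of VWAT_SD to SWAT_SD was 82.7 (41.8 to 192), with log2 differences of 6.22 (SE 0.438) and 6.33 (SE 0.422). SWAT_HFD held 7 counts, and without its replicate 2 the log2 difference on HFD was 6.83. SWAT_SD held 8 counts, and without its replicate 2 that on SD was 7.0. The diet differences were 0.02 (SE 0.247) in VWAT and 0.13 (SE 0.816) in SWAT, where it was -0.48 without SWAT_HFD replicate 2 and 0.81 without SWAT_SD replicate 2.

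Cldn10 went the other way, with 0.674, 0.863 and 0.645 CPM in VWAT_HFD libraries and 1.26, 1.38 and 1.72 CPM in VWAT_SD libraries. It gave 29.7, 36.9 and 28.3 CPM in SWAT_HFD libraries and 23.7, 21.4 and 30.4 CPM in SWAT_SD libraries. Every VWAT library was below every SWAT library, and every VWAT_HFD library was below every VWAT_SD library, while the SWAT diets overlapped. It was 43.3-fold lower in VWAT_HFD than in SWAT_HFD (35.9 to 52.8), a log2 difference of -5.44 (SE 0.196). It was 16.6-fold lower in VWAT_SD than in SWAT_SD (14.5 to 19.1), a log2 difference of -4.11 (SE 0.179). The diet differences were -0.99 (SE 0.214) in VWAT and 0.34 (SE 0.148) in SWAT, and the difference between them was -1.33 (SE 0.261). That value is a description, because a differing diet change was among the reasons for listing the genes. Over all 14266 genes tested, 0 passed the test of such a difference. Its levels ran from SWAT_HFD and SWAT_SD, which overlap, to VWAT_SD and then VWAT_HFD.

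Krt19 gave 0.354, 0.923 and 0.215 CPM in VWAT_HFD libraries and 0.663, 0.550 and 0.701 CPM in VWAT_SD libraries. It gave 3.14, 4.05 and 2.0 CPM in SWAT_HFD libraries and 1.80, 3.49 and 2.84 CPM in SWAT_SD libraries. The depots did not overlap and the diets did. It was 5.81-fold lower in VWAT_HFD than in SWAT_HFD (4.50 to 7.58), a log2 difference of -2.61 (SE 0.438), and 4.10-fold lower in VWAT_SD than in SWAT_SD (3.27 to 5.17), a log2 difference of -2.07 (SE 0.421). The diet differences were -0.36 (SE 0.459) in VWAT and 0.17 (SE 0.392) in SWAT. The VWAT_HFD libraries were spread widely, with replicate 2 the highest. Without it the diet difference in VWAT was -1.14 and the depot difference on HFD -3.38. Krt19 had the smallest depot difference of the 6 genes on both diets.

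**Figure D2:**
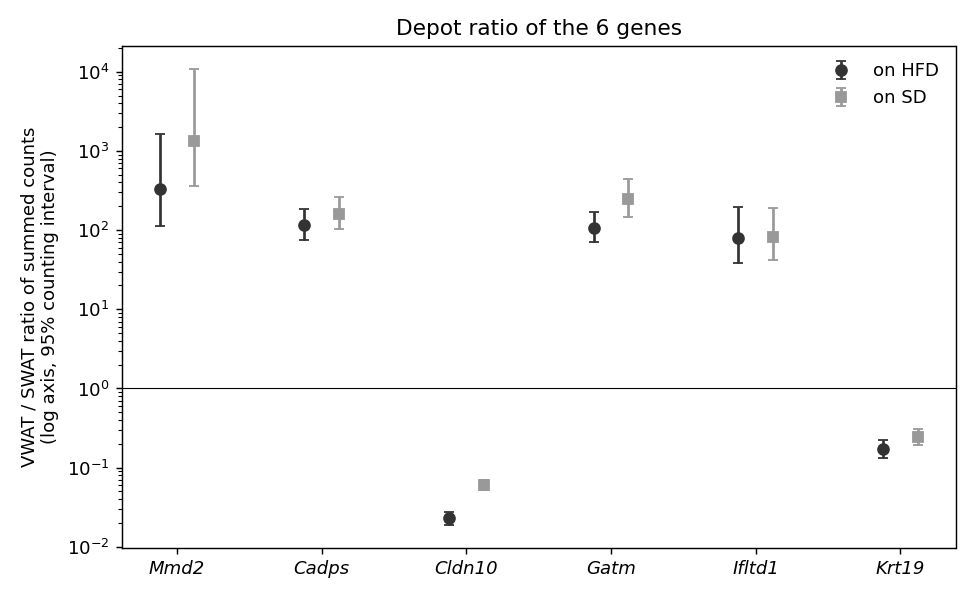
Ratio of VWAT to SWAT counts of each gene on HFD (circles) and SD (squares), on a log axis, with 95% counting intervals. The ratios of the 4 upper genes lay between 78.6 and 1321, and Cldn10 and Krt19 lay below 1 on both diets.

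Set per kilobase of the longest coding transcript, the levels of the 6 genes can be ranked against each other. Gatm was the highest of them in VWAT, at 10.3 CPM per kb in VWAT_HFD and 13.1 in VWAT_SD. In VWAT_SD it was followed by Mmd2 at 6.73, Cadps at 4.95 and Ifltd1 at 2.37 CPM per kb, and in VWAT_HFD by Cadps at 4.64, Mmd2 at 3.15 and Ifltd1 at 2.40. Cldn10 was the highest in SWAT, at 14.9 CPM per kb in SWAT_HFD and 11.8 in SWAT_SD, with Krt19 at 1.95 and 1.72 in the same groups. The level left in the depot where a gene was low differed among them. The SWAT_HFD level was 0.301% of the VWAT_HFD level for Mmd2, 0.873% for Cadps, 0.943% for Gatm and 1.27% for Ifltd1. The SWAT_SD level was 0.0757% of the VWAT_SD level for Mmd2, 0.408% for Gatm, 0.624% for Cadps and 1.21% for Ifltd1. The counting intervals of the ratios on HFD of these 4 genes overlap one another.

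After 3 days of high-fat diet, Mmd2 and Cldn10 had every VWAT_HFD library below every VWAT_SD library, a pattern that 17.5% of all genes showed, while 15.5% showed the opposite and 33.0% one or the other. They stand on opposite sides of the depot comparison, with Mmd2 high in VWAT and Cldn10 high in SWAT. Cadps, Gatm, Ifltd1 and Krt19 overlapped between the diets in VWAT. In SWAT only Cadps of the 6 had libraries apart, with the values given above. The VWAT minus SWAT difference of the diet change was -0.50 (SE 0.403) for Cadps, -1.22 (SE 1.04) for Gatm, -0.11 (SE 0.842) for Ifltd1 and -0.54 (SE 0.603) for Krt19. For Cldn10 it was -1.33 (SE 0.261), and 0 of the 14266 genes tested passed the test of this difference. That of Gatm turned to 0.64 without SWAT_HFD replicate 2 and was -1.89 without SWAT_HFD replicate 3, that of Ifltd1 was 0.52 without SWAT_HFD replicate 2 and -0.78 without SWAT_SD replicate 2, and that of Krt19 was -1.31 without VWAT_HFD replicate 2. The depot and the diet comparisons share their libraries.

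**Figure D3:**
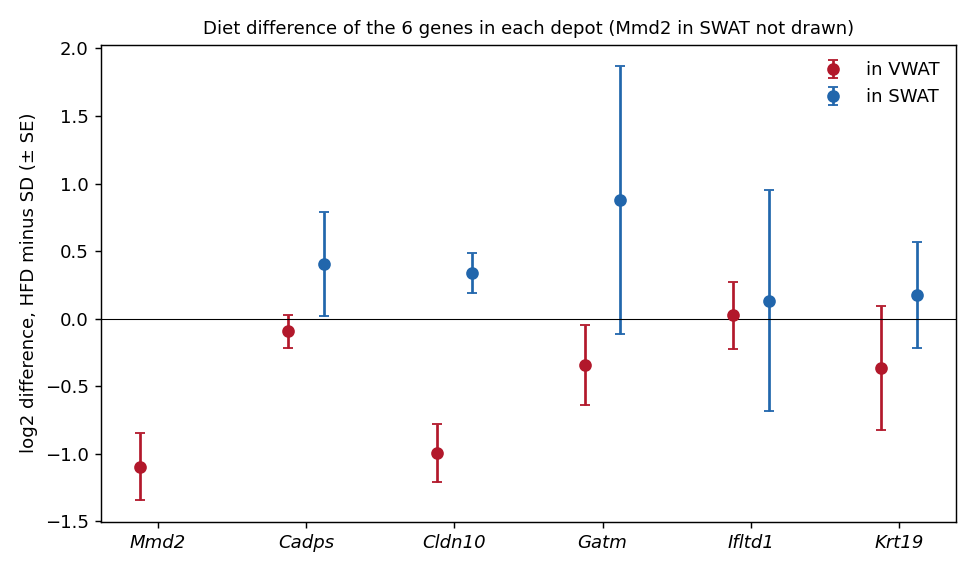
Log2 difference of HFD minus SD for each gene in VWAT (red) and SWAT (blue), with SE of the fit. Mmd2 and Cldn10 lay at -1.10 and -0.99 in VWAT, and the SWAT values of Gatm and Ifltd1 have wide errors because their counts are few.

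The genes of most similar pattern were ranked by the root mean square difference of centred log2 CPM over the 12 libraries, so that a smaller value means a closer pattern. Among those nearest to Mmd2 were the transcription factor genes Wt1 (0.687) and Tcf21 (0.926). Wt1 averaged 108 ± 10.9 CPM in VWAT_HFD, 115 ± 15.4 in VWAT_SD, 0.435 ± 0.204 in SWAT_HFD and 0.435 ± 0.219 in SWAT_SD. Wt1 (1.05) was also among those nearest to Gatm, with the collagen gene Col6a5 (1.02). Cadps was nearest to Hp, which encodes haptoglobin (0.521), Col6a5 (0.570) and the cytochrome P450 gene Cyp2s1 (0.649). Ifltd1 was nearest to the matrix gene Hmcn1 (0.507), Cyp2s1 (0.521) and the proteoglycan gene Epyc (0.555). Cldn10 was nearest to the homeobox gene Hoxc10 (0.276), at 0.514 ± 0.0783 CPM in VWAT_HFD, 0.935 ± 0.192 in VWAT_SD, 25.6 ± 2.28 in SWAT_HFD and 22.7 ± 2.37 in SWAT_SD, then to Emb (0.396) and Gpr1 (0.418). Krt19 was nearest to the dioxin receptor gene Ahr (0.346), the cingulin-like gene Cgnl1 (0.381) and the secreted WNT antagonist gene Sfrp2 (0.413). The 12 libraries share the depot split, and the measure is given as a description.

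The relatives of the 6 genes, 74 tested genes in 6 lists of families and pathways, were tested in the same fit, and most of them did not pass between the depots. On HFD, 15 were higher and 11 lower in VWAT than in SWAT, and on SD 14 were higher and 10 lower (edgeR's quasi-likelihood test, Benjamini-Hochberg adjusted p under 0.05). Of all genes tested, 26.8% passed on HFD (13.4% higher and 13.4% lower in VWAT) and 25.7% on SD (13.2% higher and 12.5% lower). The share of higher genes among those called was 50.1% on HFD and 51.2% on SD, and with scaling by library size alone it was 83.8% on HFD and 79.3% on SD. The median log2 difference of the 74 genes was 0.10 on HFD and -0.07 on SD, beside 0.02 over all genes on either diet.

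**Figure D4:**
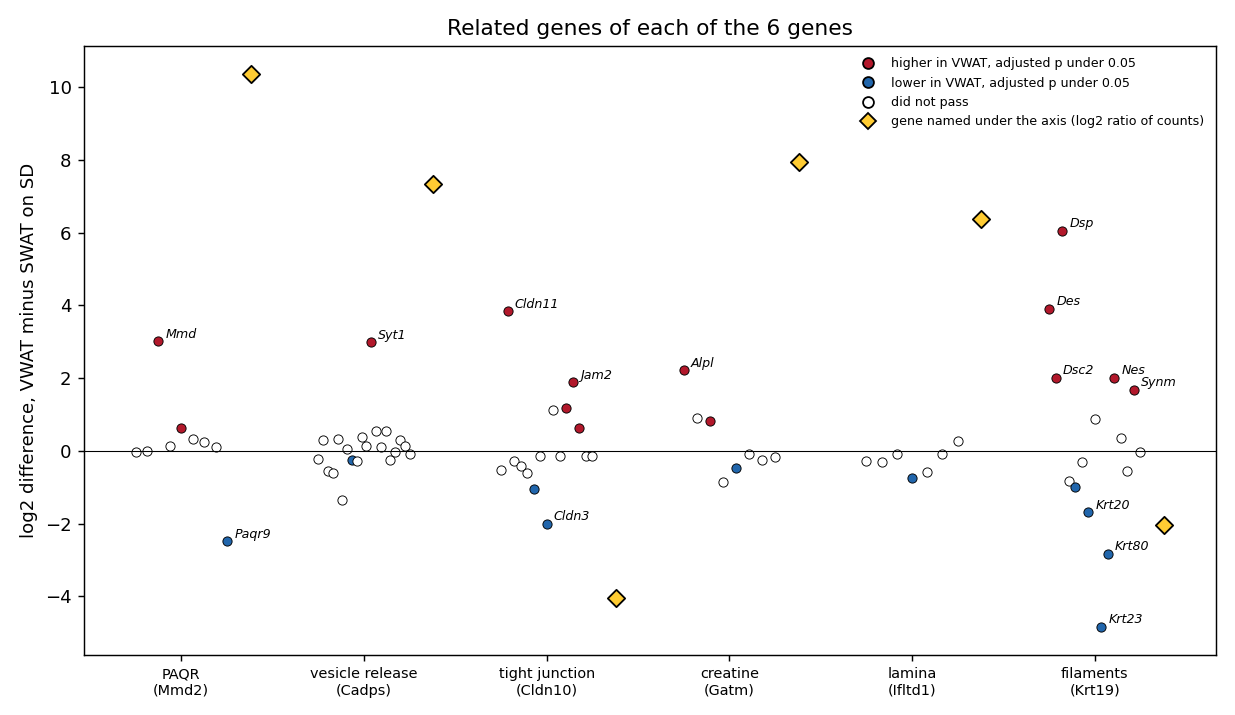
Log2 difference of VWAT minus SWAT on SD for the tested genes of the 6 lists (circles, filled where they passed) and for the 6 genes themselves (diamonds, log2 ratio of counts). Mmd2, Cadps, Gatm and Ifltd1 lay above every gene of their own lists, and Cldn10 lay below every gene of its list. The genes drawn as diamonds were picked for depot or diet differences, so where they lie is a description and not a test.

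Among 9 PAQR genes tested, 2 were higher and 1 lower in VWAT than in SWAT on each diet. Mmd, the closest relative of Mmd2, averaged 44.9 ± 12.7 CPM in VWAT_HFD and 5.83 ± 0.451 in SWAT_HFD. On SD it averaged 43.1 ± 0.986 CPM in VWAT_SD and 5.4 ± 0.674 in SWAT_SD, a log2 difference of 3.00 (SE 0.173, adjusted p 3.95e-08). Its diet difference in VWAT did not pass (log2 0.06, SE 0.153, adjusted p 0.829). Paqr4 was 0.62 higher in VWAT on SD (SE 0.113, adjusted p 0.00099) and Paqr9, at under 1 CPM in every library, 2.49 lower (log2 -2.49, SE 0.652, adjusted p 0.0121). On HFD in VWAT 2 PAQR genes were higher and 1 lower. Paqr9 (log2 2.19, SE 0.651, adjusted p 0.0383) and Adipor2, an adiponectin receptor gene (log2 0.31, SE 0.0914, adjusted p 0.0353), were the higher ones. Paqr6, named here after its values were seen, was the lower one, at 0.725 ± 0.318 CPM in VWAT_HFD and 1.60 ± 0.500 in VWAT_SD (log2 -1.13, SE 0.342, adjusted p 0.042). The count of 3 became 1 without VWAT_HFD replicate 1 or SWAT_SD replicate 1 or 2, and 0 without VWAT_HFD replicate 2 or VWAT_SD replicate 1 or 3. Adipor2 missed the threshold without VWAT_HFD replicate 1 or 2 or any VWAT_SD library, and Paqr9 without VWAT_HFD replicate 1 or 2, VWAT_SD replicate 1 or 3, or SWAT_SD replicate 1 or 2. Over all alternatives the adjusted p ran from 0.00256 to 0.158 for Adipor2 and from 0.0180 to 0.141 for Paqr9.

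Of 20 tested genes of dense-core vesicle cargo and release, the machinery Cadps acts with, 2 were higher and 3 lower in VWAT on HFD, and 1 was higher and 1 lower on SD. The listed genes Chga, Chgb, Scg2, Pcsk1, Ptprn2, Snap25, Stxbp2 and Syt4 were not in the count table and were not tested. Cadps2, the other gene of the Cadps family, averaged 8.20 ± 0.665 CPM in VWAT_HFD and 10.7 ± 0.802 in SWAT_HFD, and 7.43 ± 0.217 in VWAT_SD and 8.70 ± 0.446 in SWAT_SD. It was lower in VWAT on HFD (log2 -0.40, SE 0.1, adjusted p 0.00981), and on SD its difference of -0.23 did not pass (adjusted p 0.121). Syt1, a calcium sensor of vesicle fusion, was higher in VWAT on SD, at 0.417 ± 0.152 CPM in VWAT_SD and 0.0586 ± 0.0367 in SWAT_SD (log2 2.98, SE 0.59, adjusted p 0.00189). Snap23, a fusion protein of many cell types, was 0.26 lower (log2 -0.26, SE 0.0818, adjusted p 0.0312), a call lost without VWAT_SD replicate 3 or SWAT_SD replicate 1 or 2, with an adjusted p of 0.00545 to 0.733 over the alternatives. On HFD in VWAT Snap23 was higher (log2 0.34, SE 0.0815, adjusted p 0.0152), which was lost without VWAT_HFD replicate 2 or VWAT_SD replicate 3 (0.000426 to 0.0979 over the alternatives). The list's counts moved with libraries: on SD 4 passed without VWAT_HFD replicate 3 and 1 without VWAT_SD replicate 3, SWAT_SD replicate 1 or SWAT_SD replicate 2, and on HFD 3 passed without SWAT_HFD replicate 1 or 2.

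Gatm makes the precursor of creatine from arginine and glycine. Of 8 tested genes of creatine and arginine metabolism, 2 were higher and 0 lower in VWAT on HFD, and 2 were higher and 1 lower on SD. Gamt, the enzyme of the second step, did not pass in either comparison, at 9.37 ± 1.52 CPM in VWAT_HFD, 7.88 ± 1.16 in VWAT_SD, 8.28 ± 0.462 in SWAT_HFD and 8.46 ± 1.37 in SWAT_SD. Slc6a8, the creatine importer, did not pass either, with log2 differences of -0.19 on HFD (adjusted p 0.0883) and -0.16 on SD (adjusted p 0.152). Alpl, tissue-nonspecific alkaline phosphatase, was higher, at 32.2 ± 4.06 CPM in VWAT_HFD and 4.16 ± 1.61 in SWAT_HFD, and 25.5 ± 1.33 in VWAT_SD and 5.57 ± 0.667 in SWAT_SD (log2 on SD 2.21, SE 0.204, adjusted p 2.62e-06). Asl, the argininosuccinate lyase that makes arginine, was 0.82 higher on SD (SE 0.133, adjusted p 0.00042). In VWAT it was lower on HFD (log2 -0.50, SE 0.13, adjusted p 0.0224), a call lost without VWAT_HFD replicate 2 or VWAT_SD replicate 3 (0.00829 to 0.121 over the alternatives). Ckb, brain-type creatine kinase, was lower in VWAT on SD (log2 -0.47, SE 0.154, adjusted p 0.0379), and that call was lost without any of the 6 SD libraries (0.00066 to 0.176 over the alternatives).

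Of 15 tested claudin and tight junction genes, 2 were higher and 3 lower in VWAT on HFD, and 4 were higher and 2 lower on SD. Without VWAT_HFD replicate 3, 8 passed on HFD. Jam2, a junctional adhesion molecule gene, averaged 95.2 ± 20.8 CPM in VWAT_HFD and 26.7 ± 2.38 in SWAT_HFD, and 122 ± 6.67 in VWAT_SD and 33.0 ± 2.34 in SWAT_SD (log2 on SD 1.88, SE 0.136, adjusted p 2.94e-07). Its relative Jam3 was 0.63 higher on SD (SE 0.0985, adjusted p 0.000308). Cldn3 had the direction of Cldn10, at 0.824 ± 0.476 CPM in VWAT_HFD and 4.44 ± 1.04 in SWAT_HFD, and 1.45 ± 0.411 in VWAT_SD and 5.77 ± 1.53 in SWAT_SD (log2 on SD -2.0, SE 0.361, adjusted p 0.000959). Cldn11 had the opposite direction on SD, at 1.79 ± 1.24 CPM in VWAT_SD and 0.118 ± 0.0233 in SWAT_SD (log2 3.84, SE 0.702, adjusted p 0.00106). It was lower in VWAT on HFD (log2 -1.89, SE 0.556, adjusted p 0.0373), which was lost without VWAT_HFD replicate 2 or 3, VWAT_SD replicate 1 or 3, SWAT_HFD replicate 2, or SWAT_SD replicate 1 or 2 (0.0103 to 0.177 over the alternatives).

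Of 15 tested keratins, other intermediate filament genes and desmosome genes, 5 were higher and 4 lower in VWAT on each diet. Des, which encodes desmin, was higher, at 70.8 ± 4.54 CPM in VWAT_HFD and 8.29 ± 2.07 in SWAT_HFD, and 82.2 ± 9.06 in VWAT_SD and 5.49 ± 0.685 in SWAT_SD (log2 on SD 3.91, SE 0.164, adjusted p 2.41e-09). Dsp, the desmoplakin gene of desmosomes, averaged 3.64 ± 0.703 CPM in VWAT_HFD and 0.132 ± 0.0818 in SWAT_HFD, and 4.68 ± 0.496 in VWAT_SD and 0.0875 ± 0.0849 in SWAT_SD (log2 on SD 6.05, SE 0.417, adjusted p 1.91e-07). The 3 keratin genes of the list that passed on SD went the way of Krt19. Krt80 averaged 4.23 ± 0.496 CPM in VWAT_HFD and 24.8 ± 0.898 in SWAT_HFD, and 4.48 ± 0.168 in VWAT_SD and 32.0 ± 8.54 in SWAT_SD (log2 on SD -2.84, SE 0.165, adjusted p 4.29e-08). Krt23 was 4.85 lower on the log2 scale (log2 -4.85, SE 0.562, adjusted p 2.24e-05). Its level was 0.0185 to 0.106 CPM in VWAT_SD, on 1 to 5 counts a library, and 1.37 to 2.30 CPM in SWAT_SD. Krt20, named here after its values were seen, had a log2 difference of -1.69 (SE 0.378, adjusted p 0.00437). On HFD in VWAT Nes, the nestin gene, was higher (log2 0.99, SE 0.216, adjusted p 0.00938), a call lost without VWAT_HFD replicate 2 (0.000126 to 0.0577 over the alternatives). Pkp2, a plakophilin gene of desmosomes, was lower (log2 -1.39, SE 0.325, adjusted p 0.0132), and this was lost without VWAT_HFD replicate 1 or 2 or VWAT_SD replicate 3 (0.000227 to 0.0758 over the alternatives).

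The nuclear lamina list, set beside Ifltd1 for its lamin tail domain, had 7 genes tested, with 2 higher and 0 lower in VWAT on HFD and 0 higher and 1 lower on SD. Lmna, the lamin A and C gene, was the lower one, at 186 ± 9.07 CPM in VWAT_SD and 312 ± 15.2 in SWAT_SD (log2 -0.75, SE 0.154, adjusted p 0.00253). In VWAT 3 of the 7 were higher on HFD and 0 lower, with a list median of 0.44 beside -0.02 over all genes. Lmna averaged 336 ± 58.6 CPM in VWAT_HFD and 186 ± 9.07 in VWAT_SD (log2 0.85, SE 0.154, adjusted p 0.00356), and Lmnb2, a lamin B gene, 19.3 ± 6.08 in VWAT_HFD and 8.82 ± 0.838 in VWAT_SD (log2 1.13, SE 0.205, adjusted p 0.00356). These counts moved with libraries. On HFD 1 passed without VWAT_HFD replicate 2 or SWAT_HFD replicate 1, on SD 2 passed without VWAT_HFD replicate 2 or 3, and in the diet comparison of VWAT 6 passed without VWAT_HFD replicate 3 and 5 without SWAT_HFD replicate 3. Ifltd1 itself had a diet difference of 0.02 in VWAT.

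Over the 6 lists together, 10 genes were higher and 6 lower on HFD in VWAT, beside 8.64% higher and 6.98% lower of all genes (15.6% in all). Without VWAT_HFD replicate 3 the sum of 16 became 26, without VWAT_HFD replicate 2 it became 5 and without VWAT_SD replicate 3 it became 6. With library size alone, 30.5% of all genes called in VWAT were higher on HFD, against 55.3% with TMM scaling. In SWAT 0 of the 74 genes passed by edgeR's test, with 19 at an unadjusted p under 0.05, 3 called by DESeq2 and 0 by limma voom, beside 1.11% of all genes (0.967% higher and 0.147% lower). Of all genes called there 86.8% were higher on HFD, against 38.4% with library size alone. Without VWAT_HFD replicate 3 the 0 became 3, and without SWAT_HFD replicate 1 it became 1. No gene of the lists passed the test of a difference between the diet changes, with 8 at an unadjusted p under 0.05 and 0 called by DESeq2 or limma voom. Without VWAT_HFD replicate 3 that count was 3.

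Markers of some other cell types differed between the depots. Of 14 mesothelial markers 9 were tested, and 7 were higher and 0 lower in VWAT on each diet, with a median log2 difference of 4.13 on HFD and 4.61 on SD. The others, the keratin genes Krt7, Krt8 and Krt18 with Bnc1 and Muc16, were not in the count table for either depot. Each gene of that table reached at least 20 counts in some library. The highest of the tested markers in VWAT were Wt1, which visceral stromal cells also express, Rspo1 and Cldn15. Without these 3 the summed level was 10.6 to 16.0 CPM in VWAT_HFD, 11.2 to 16.2 in VWAT_SD, 0.624 to 1.34 in SWAT_HFD and 0.593 to 1.26 in SWAT_SD. Nkain4 made up the larger part of that sum in every VWAT library, at 8.73 to 10.9 CPM in VWAT_HFD and 7.93 to 10.8 in VWAT_SD. Msln, which encodes mesothelin, had 0.323 to 1.32 CPM in VWAT_HFD, 0.487 to 1.62 in VWAT_SD, 0 to 0.0309 in SWAT_HFD and 0 to 0.0217 in SWAT_SD. Upk1b was at 0 in all SWAT libraries. With all 9 genes the sum was 162 to 198 CPM in VWAT_HFD, 187 to 203 in VWAT_SD, 30.1 to 44.8 in SWAT_HFD and 37.1 to 44.2 in SWAT_SD. Both sums stood on the same side as Mmd2, Cadps, Gatm and Ifltd1 and on the opposite side to Krt19, a keratin of mesothelium too. In VWAT these sums of the diets overlapped. Of the 9 mesothelial markers 0 were higher and 1 lower on HFD in VWAT, and the lower one was Rspo1, an R-spondin gene, at 23.9 to 35.7 CPM in VWAT_HFD and 40.9 to 51.4 in VWAT_SD (log2 -0.69, SE 0.157, adjusted p 0.0116). Every VWAT_HFD library of Rspo1 was thus below every VWAT_SD library, as for Mmd2 and for 17.5% of all genes. The call was lost without VWAT_HFD replicate 1 or 2 or VWAT_SD replicate 3. The part of mesothelial cells in these levels was not tested.

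Of 15 epithelial markers, which could bear on Cldn10 and Krt19, 4 were tested, with 0 higher and 2 lower in VWAT on HFD and 1 higher and 1 lower on SD. The others were not in the count table for either depot. They were Epcam, Cdh1, Krt5, Krt14, Krt15, Krt17, Elf3, Esrp1, Cldn4, Grhl2 and Ocln. The summed level of the tested markers was 0.796 to 1.95 CPM in VWAT_HFD, 1.80 to 3.23 in VWAT_SD, 4.12 to 5.95 in SWAT_HFD and 5.49 to 8.47 in SWAT_SD. Cldn3 made up the larger part of it in every SWAT library, and the other 3 genes were below 1 CPM in every library. The 2 called on HFD were 1 without VWAT_HFD replicate 2 or 3, VWAT_SD replicate 1, or SWAT_HFD replicate 1 or 2. The Schwann cell markers, with 3 of 4 lower in VWAT on each diet, summed to 6.20 to 7.68 CPM in VWAT_HFD, 8.26 to 11.5 in VWAT_SD, 31.0 to 35.0 in SWAT_HFD and 31.0 to 36.1 in SWAT_SD. The part of epithelial or Schwann cells in the levels of Cldn10 and Krt19 was not tested. Markers of the sorted cells were present in every library, with summed levels of 3441 to 4087 CPM in VWAT_HFD, 3345 to 3497 in VWAT_SD, 4957 to 5237 in SWAT_HFD and 4251 to 4495 in SWAT_SD.

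**Figure D5:**
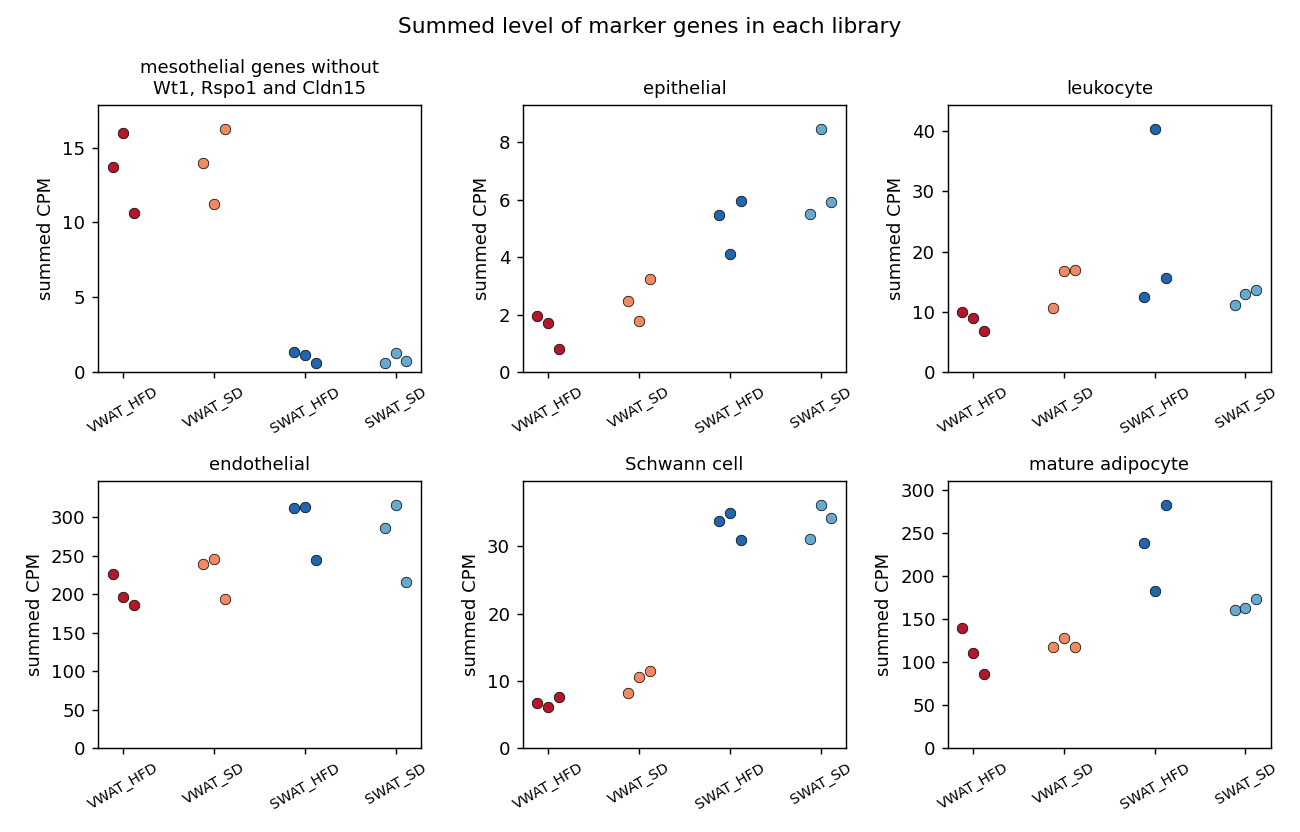
Summed TMM-scaled CPM of the tested marker genes of 6 cell types in each library (points, 3 per group, own scale in each panel), with Wt1, Rspo1 and Cldn15 left out of the mesothelial sum. That sum was 10.6 or more in all VWAT libraries and 1.34 or less in all SWAT libraries, and SWAT_HFD replicate 2 had the highest leukocyte sum, 40.3. Nkain4 made up most of the mesothelial sum drawn in every VWAT library. Tek made up most of the endothelial sum and Fabp4 most of the adipocyte sum in every library. The median log2 difference of VWAT minus SWAT over the endothelial list was 0.66 on SD and -0.10 on HFD. Over the adipocyte list it was 0.73 on SD and 0.47 on HFD.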

How the data were processed

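RNA of sorted adipocyte precursor cells was measured in 12 libraries (4 groups of 3, by depot and diet). The authors deposited 1 table of whole-number read counts per gene, not normalized. Reads were aligned with TopHat and counted with HTSeq on the mouse build mm9, per the submitters' processing notes, and no version is stated. Libraries mark the strand with dUTP, per the labels' protocols, but whether counting used it is not stated there, so overlapping and antisense genes are uncertain. Entries that name no gene (no feature, ambiguous and not uniquely aligned, at 3.53 to 5.57%, 1.71 to 1.95% and 15.0 to 20.8% of a library) were left out. Each of the 14398 genes reached at least 20 counts in some library, so list members below that level were not analysed here.

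The test was the robust quasi-likelihood F test of edgeR 4.0.16 in R 4.3.3, with TMM scaling, in 1 fit of 4 groups, after filterByExpr kept 14266 genes, with Benjamini-Hochberg adjustment over all of them and a threshold of 0.05. Depot ratios are of summed counts over summed scaled library sizes, with exact Clopper-Pearson 95% intervals that cover counting error only. For a group with no count, 3 counts served as the floor. An exact test of 3 against 3 libraries cannot pass the threshold and was not used. Likeness used log2 CPM with a prior count of 2, over genes of at least 5 CPM in some group. Promoter windows and motif letters are from RefSeq, GRCm38.p6, and transcript lengths from GENCODE; no mm9 coordinates are given. The fit was tested on simulated data with the same dispersion for all genes, in which genes of low mean level were not changed. That run does not show how the fit behaves for genes with few counts in a depot.

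The 6 genes, the gene lists and the tests were chosen with earlier results of these data known. Genes named beside the 6 are the 3 of most similar pattern, and per list up to 4 with the lowest adjusted p between depots on SD and up to 2 per diet comparison; a few genes that these rules name are not reported here. Marker lists were of precursor, mesothelial, epithelial, epididymal, leukocyte, endothelial, mural, Schwann, adipocyte and muscle cells.

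Replicate numbers are shared by the groups. Between VWAT_SD and SWAT_SD, libraries of the same number deviated together over genes, with correlations of 0.177, 0.178 and 0.398, which meets the limit for pairing. The values and calls given are nonetheless of the fit without the block, chosen as the main one, and for this SD comparison blocked counts stand beside each list that the block moved by more than 1.5 times. In the other comparisons at least 1 correlation was under 0.1. Alternatives were DESeq2 (version 1.42.0) and limma voom (version 3.58.1), other scalings and filters, the replicate block, fits of 6 libraries, and leaving out each library.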

Additional observations from a re-analysis of the deposited data

Results flagged for a closer look

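Des, the desmin gene of the filament list, was lower in every VWAT_HFD library than in every VWAT_SD library, at 65.6 to 73.5 CPM in VWAT_HFD and 76.4 to 92.6 CPM in VWAT_SD. In SWAT the order of the diets was the opposite, at 6.15 to 10.3 CPM in SWAT_HFD and 4.78 to 6.15 CPM in SWAT_SD. Of all genes, 17.5% had every VWAT_HFD library below every VWAT_SD library. Every SWAT_HFD library was above every SWAT_SD library for 11.6%. The diet change in VWAT minus that in SWAT was -0.85 on the log2 scale (SE 0.214), and edgeR's test of this difference did not pass (adjusted p 0.47). The groups of 3 libraries are too small for a formal test of whether a single library stands apart in these Des values.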

How the results depend on the processing

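Every depot difference of the 6 genes kept its direction under every alternative run. With library size alone the median of all genes moved to 0.30 on HFD and 0.24 on SD between depots, and to -0.13 in VWAT and -0.18 in SWAT between diets, and the HFD depot difference was 7.10 for Cadps and -5.15 for Cldn10. Leaving out single libraries, the depot difference of Mmd2 ran from 7.95 to 9.37 on HFD and from 8.94 to 10.66 on SD, that of Gatm on HFD from 6.04 to 8.55 and that of Ifltd1 on SD from 5.93 to 7.00. The diet difference ran from -0.97 to 1.54 for Gatm in SWAT and from -1.14 to -0.032 for Krt19 in VWAT. The difference between diet changes ran from -1.89 to 0.64 for Gatm (0.64 without SWAT_HFD replicate 2), from -0.78 to 0.52 for Ifltd1 and from -1.31 to -0.20 for Krt19. Diet differences of Gatm, Ifltd1 and Krt19 in SWAT, and of Cadps and Ifltd1 in VWAT, also took either sign, each smaller than its SE with all libraries. The cause was not tested. Of all genes, 6954 passed between depots on HFD with library size alone, and 2464 on HFD and 2344 on SD among genes with a mean of at least 5 CPM, a filter that tests fewer genes. In the list genes that filter left 15 family and 13 marker genes on HFD and 13 and 13 on SD, and library size alone gave 41 family genes on HFD. Between diets in VWAT a fit of the 6 libraries alone called 1246 genes and 7 family genes. Between diets in SWAT the 159 genes called became 263 with library size alone, 536 with DESeq2, 12 with limma voom, 57 among genes of at least 5 CPM, 247 with the replicate block and 352 in 6 libraries. Family genes called there were 1, 3, 1 and 1, and marker genes 1, 4, 1 and 2, with library size alone, DESeq2, the replicate block and 6 libraries. For the difference between diet changes, 0 genes passed by edgeR, with 1026 at an unadjusted p under 0.05, 35 by DESeq2 (1 of them a marker gene) and 1 with the replicate block. The block left the other calls of all genes within 1.5 times, with 3787 between depots on HFD, 3663 on SD and 2279 between diets in VWAT. On SD, where the numbers pair the libraries, it called 26 family genes in place of 24 and 29 marker genes in place of 25, and no call of a family gene named by the rule for named genes was lost there. Leaving out single libraries, the genes called between diets ran from 757 to 4266 in VWAT and from 0 to 615 in SWAT, and 0 to 135 for their difference; family genes from 5 to 26, 0 to 3 and 0 to 3, and marker genes from 4 to 14, 0 to 2 and 0 to 1. Of the 3 genes most similar to Gatm 1 was shared with a prior count of 0.5 or with library size alone, and of those to Ifltd1 1 with a prior count of 0.5. Levels in SWAT rest on 2 to 22 counts a group for Mmd2, Cadps, Gatm and Ifltd1, so diet differences there are limited by depth.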

Other observations

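The cells' own sort and precursor markers differed between the depots. Of 7 such genes, 1 was higher and 4 lower in VWAT on HFD, and 0 were higher and 5 lower on SD, with medians of -0.38 on HFD and -0.99 on SD. Dpp4, a surface peptidase of early progenitors, had 158 to 220 CPM in VWAT_HFD, 171 to 205 in VWAT_SD, 509 to 540 in SWAT_HFD and 442 to 540 in SWAT_SD (log2 on SD -1.32, SE 0.13, adjusted p 4.79e-06 by edgeR). Cd24a, which encodes the CD24 that the cells carried or not, had 1.72 to 4.33 CPM in VWAT_HFD, 2.16 to 3.13 in VWAT_SD, 10.6 to 19.6 in SWAT_HFD and 10.9 to 17.1 in SWAT_SD (log2 on SD -2.43, SE 0.316, adjusted p 6.48e-05). The 5 called on HFD were 3 without VWAT_HFD replicate 2 or SWAT_HFD replicate 1 or 2. Their part in the depot differences of the 6 genes was not tested.

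Of 6 mural cell markers, 3 were higher and 0 lower in VWAT on HFD, and 3 were higher and 1 lower on SD. Myh11, smooth muscle myosin, had 5.09 to 14.6 CPM in VWAT_HFD, 18.4 to 31.7 in VWAT_SD, 1.40 to 2.85 in SWAT_HFD and 1.88 to 3.18 in SWAT_SD (log2 on SD 3.10, SE 0.381, adjusted p 3.89e-05), and it was lower on HFD in VWAT (log2 -1.42, SE 0.343, adjusted p 0.0154). In that diet comparison 2 of the 6 were higher and 1 lower, with a median of 0.61. The higher ones were the receptor gene Notch3, at 22.6 ± 4.09 CPM in VWAT_HFD and 13.6 ± 0.946 in VWAT_SD (log2 0.73, SE 0.187, adjusted p 0.0208), and the proteoglycan gene Cspg4, at 2.99 ± 0.620 CPM in VWAT_HFD and 1.74 ± 0.441 in VWAT_SD (log2 0.77, SE 0.241, adjusted p 0.047). The 3 calls became 1 without VWAT_HFD replicate 1 or VWAT_SD replicate 2 and 0 without VWAT_HFD replicate 2 or VWAT_SD replicate 3. Of 7 leukocyte markers, 0 were higher and 3 lower in VWAT on HFD. On SD 0 passed by edgeR's test, with 3 at an unadjusted p under 0.05, 2 with the libraries paired by number, 2 without SWAT_HFD replicate 2 and 1 without VWAT_SD replicate 1. On HFD 5 passed without SWAT_HFD replicate 1. Of 7 endothelial markers 1 was lower on HFD and 0 passed on SD, with 1 at an unadjusted p under 0.05, 1 called by DESeq2, 1 with the libraries paired by number, 2 without VWAT_HFD replicate 3 and 1 without SWAT_SD replicate 3. Of 5 mature adipocyte markers 1 was lower on HFD, and 1 was higher and 1 lower on SD. The 2 called on SD were 1 without VWAT_SD replicate 1 or 3 or SWAT_SD replicate 2 or 3, and the 1 on HFD was 2 without VWAT_HFD replicate 3 or SWAT_HFD replicate 1. The 2 epididymal markers tested, Lcn8 and Rnase10, went opposite ways on each diet. On HFD 1 of them passed without VWAT_HFD replicate 1, any VWAT_SD library, SWAT_HFD replicate 2 or 3, or SWAT_SD replicate 1 or 2. On SD 4 markers of the list passed where leaving out a library let all 4 through the low-count filter, which held without any VWAT_HFD or SWAT_HFD library or VWAT_SD replicate 2. None of 3 skeletal muscle markers passed on either diet by edgeR's test, with 1 at an unadjusted p under 0.05 on each diet, and 1 called on HFD with the libraries paired by number.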
